A study of Mus musculus with 6 samples.

Results

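Interferon-stimulated genes are the antiviral and immune genes that a cell switches on when an interferon reaches its receptor, and 39 of them were followed here in the mouse cells of human tumours grown in mice. They were picked by gene name in the mouse count table, where they are 39 of 55536 named genes, and all 39 were among the 14459 mouse genes with enough counts to test. For 33 of them the human table of the same libraries held a gene of the same name, read from the tumour cells, and 32 of these 33 human genes could be tested.

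The tumours came from DU145, a human prostate cancer cell line, injected under the skin of male nude mice. One group of mice received Zelnorm by mouth every day; the other was the control. The doses and the ages of the mice are not given in the labels. The treatment label says Zelnorm, but the sample titles mark the same group as MBZ. These names differ, and the treatment label was followed here. Each group had 3 libraries, called MBZ_254, MBZ_257 and MBZ_259 for Zelnorm, and NC10, NC4 and NC9 for control. The labels do not say which animal gave which tumour, so the p-values measure only the spread between these samples.

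Type I interferons signal through the receptor chains Ifnar1 and Ifnar2 to the kinases Jak1 and Tyk2. These activate transcription factors, among them Stat2, which joins Irf9 in a complex that binds the interferon-stimulated response element in target promoters. Interferon gamma acts on a different element, the gamma-activated sequence. Nude mice lack a thymus and so most T cells, a main source of interferon gamma, but keep macrophages, natural killer cells and the stromal cells that invade a graft. All of these can respond to interferon.

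No difference between Zelnorm and control tumours passed the test in any of the 39 host genes. The edgeR quasi-likelihood test with Benjamini-Hochberg adjustment over all tested genes called 0 of 39, DESeq2 called 0 and limma-voom called 0. At an unadjusted p under 0.05 edgeR counted 1 of 39, Ifit3b. The same test called 0% of the 14459 mouse genes, and 1.75% had an unadjusted p under 0.05; DESeq2 called 0.0237% of mouse genes and limma-voom 0%. Libraries of one group differed more than the group means: the host genes stood high in 1 Zelnorm library, MBZ_254, and in 1 control library, NC9, and were most often lowest in the Zelnorm library MBZ_257 and the control library NC4.

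The promoters of these genes were searched for the elements that the factors above bind. RefSeq promoter windows on GRCm38.p6, running from 250 bases before to 50 after the transcription start, were found for 30 of the 39 genes. The core of the interferon-stimulated response element was searched as GAAA, any 2 bases and GAAA on both strands (TTTC, any 2 bases and TTTC on the other), and the core of the gamma-activated sequence as TTCNNNGAA, which reads the same on both strands. The first was present in 17 of 30 host genes (56.7%), against 3.99% of 27025 genes with a window. The second was present in 8 of 30 (26.7%), against 9.55%. The 2 patterns were searched independently and a window may hold both, as the windows of Gbp7, Oas1a, Bst2 and Ifitm3 did. Such matches are runs of letters, not measured binding sites. Distances are counted from the RefSeq start, which can differ from the gene start in GENCODE vM21 and for Ifit3b lies before it, in a window that was not matched to a GENCODE transcript. Examples from genes described below are printed on the gene's own strand, with 1 match each in capitals:
Ifit1, 104 bases before the start, chr19:34640775-34640804: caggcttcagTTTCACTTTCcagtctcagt
Ifit1, 85 bases before the start, chr19:34640794-34640823: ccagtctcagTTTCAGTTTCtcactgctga
Ifit3, 156 bases before the start, chr19:34583363-34583392: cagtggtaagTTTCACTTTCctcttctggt
Ifit3b, 188 bases before the start, chr19:34607759-34607788: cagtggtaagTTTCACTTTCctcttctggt
Isg15, 72 bases before the start, chr4:156200871-156200900: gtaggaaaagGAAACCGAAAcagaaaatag
Gbp2, 59 bases before the start, chr3:142620594-142620623: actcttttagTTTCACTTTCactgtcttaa
Oas3, 75 bases before the start, chr5:120777715-120777744: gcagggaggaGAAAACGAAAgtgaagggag
Irf1, gamma-activated core, 90 bases before the start, chr11:53769914-53769943: acagcctgatTTCCCCGAAatgatgaggcc
Gbp7, gamma-activated core, 106 bases before the start, chr3:142530220-142530249: tccgttttctTTCCAGGAAaagcagaagct

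The printed stretches of Ifit3 and Ifit3b carry the same letters, and these neighbouring genes are near-identical copies. The Isg15 stretch holds 3 matches in a row, each overlapping the next, and the middle one is in capitals. No response-element core was found in the Irf1 window, and no gamma-activated core in those of Ifit1, Ifit3, Isg15, Gbp2 or Oas3.

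Depth in the mouse table was 5817165 to 9228446 estimated counts per library, and the human counts per library were 24602178 to 39278195. Mouse counts were 23.4%, 15.1% and 19.7% of all counts in the Zelnorm libraries MBZ_254, MBZ_257 and MBZ_259, against 19.2%, 22.3% and 19.0% in the control libraries NC10, NC4 and NC9. Host tissue varied between tumours: summed skeletal muscle markers were 68.5, 137 and 3865 CPM (counts scaled to a common library size) in Zelnorm and 228, 1533 and 1069 CPM in control tumours, and summed fibroblast markers 20659, 8507 and 18416 CPM against 17052, 29240 and 16951 CPM. The human table held the epithelial genes of the tumour at high counts, with 387033 for KRT8 and 73942 for EPCAM. In bulk tissue, fewer cells of a type and less RNA per cell cannot be told apart.

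All levels that follow are CPM of the mouse library after TMM scaling, a correction for differences in library composition, and are given in the library order above. Each log2 fold change is the edgeR estimate for Zelnorm relative to control, with its standard error (SE). Of the 39 genes, 11 had a value above 0 and 28 below 0 (71.8%), against 46.1% of all tested mouse genes below 0. Their median log2 fold change was −0.16, where that of all tested mouse genes was 0.02. The median size of the difference was 0.18 on the log2 scale and the median spread within a group was 0.42 (pooled SD), and 34 of 39 genes differed by less than 1 SD. The SEs ran between 0.14 and 0.48, and the adjusted p from edgeR was 0.9998 for each of the 39 genes.

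**Figure D1:**
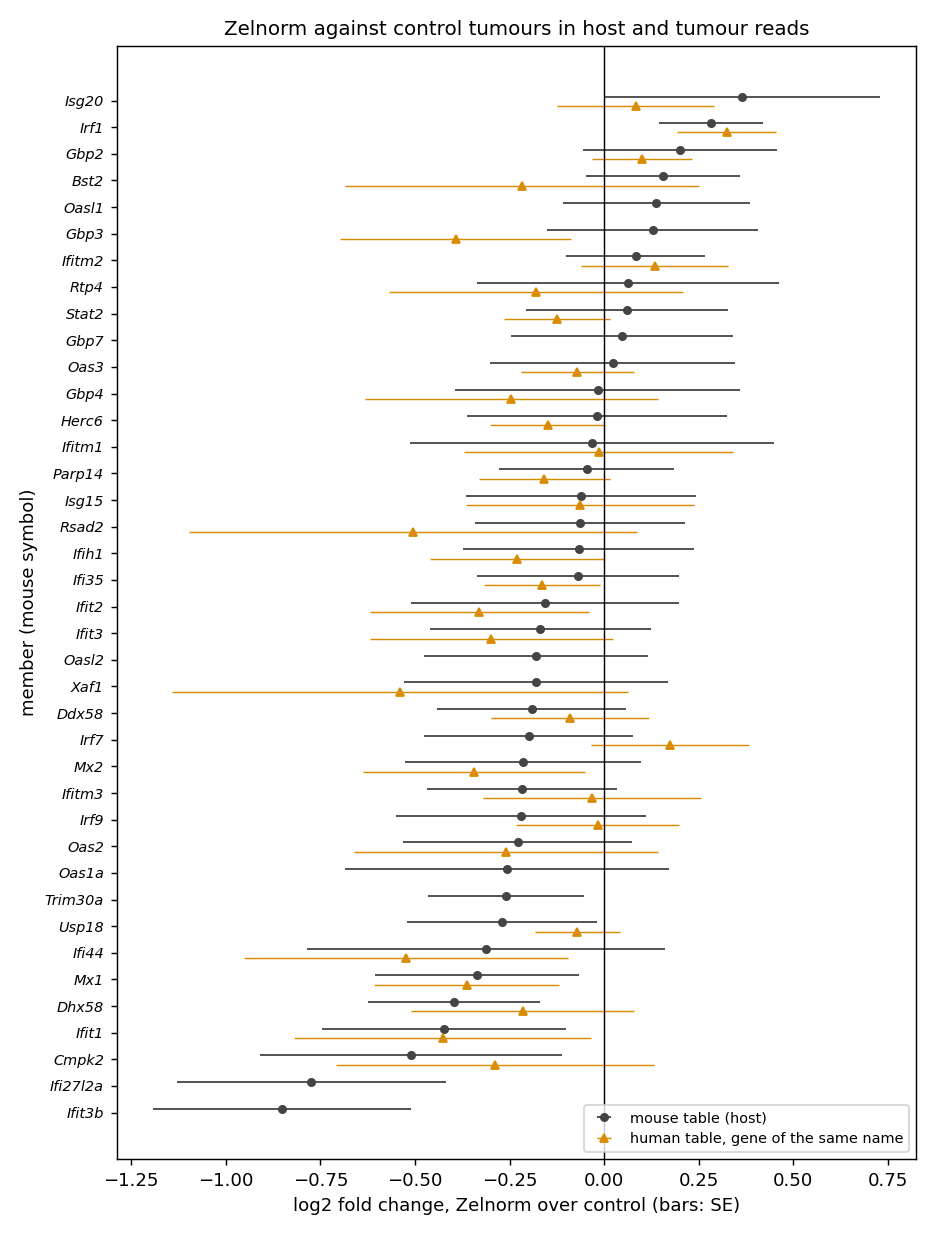
Log2 fold change of Zelnorm over control tumours, with its standard error, for each of the 39 host genes in the mouse table. The human gene of the same name in the same libraries is shown beside it, and genes are ordered by the mouse value. Most estimates lie a little below 0, with medians of −0.16 in mouse and −0.17 in human, and none passed the adjusted threshold.

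The Ifit genes and other effectors that act on nucleic acids or nucleotides were the largest group, with 12 genes. Of these, 3 had a log2 value above 0 and 9 below 0, with a median of −0.17. Ifit1 (ENSMUSG00000034459, chr19:34640871-34650009, protein-coding), whose product binds viral RNA caps, had 10.7, 8.33 and 8 CPM in Zelnorm tumours, against 11.7, 7.52 and 16.9 CPM in control tumours. The control library NC9 was the highest and the control library NC4 the lowest, so the Zelnorm values lay inside the control range. Its log2 fold change was −0.42 (SE 0.32).

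Ifit3b (chr19:34607970-34613401) is a copy of Ifit3 within the same gene cluster. It had 5.08, 3.33 and 3.09 CPM in Zelnorm tumours, against 7.54, 4.93 and 8.36 CPM in control tumours. The Zelnorm library MBZ_254 stood just above the control library NC4, so the groups overlapped by 1 library. With a log2 fold change of −0.85 (SE 0.34) and an unadjusted edgeR quasi-likelihood p of 0.0369, it had the smallest p of the 39 genes, and its adjusted p was 0.9998.

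Because Ifit3 and Ifit3b are near-identical and their deposited counts are not whole numbers in any library, the division of reads between them is uncertain. Ifit3 itself had 20.6, 13.5 and 12.2 CPM in Zelnorm tumours, against 16.5, 12.6 and 22.9 CPM in control tumours. Ifit3b took 19.8%, 19.3% and 19.9% of the counts of the pair in Zelnorm tumours and 31.1%, 28.4% and 26.6% in control tumours. These shares did not overlap: they averaged 19.7% ± 0.351 in Zelnorm and 28.7% ± 2.26 in control tumours (SD, n = 3 each), with a two-sided exact permutation p of 0.1, the smallest that 3 against 3 allows. The pair was singled out after its values were seen. Summed over both genes, the levels were 25.7, 16.8 and 15.3 CPM in Zelnorm tumours and 24.1, 17.5 and 31.3 CPM in control tumours (exact permutation p = 0.4), and these overlapped.

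The oligoadenylate synthases make the messenger that switches on RNase L, which cuts RNA. Oas1a had 42.1, 12.6 and 16.1 CPM in Zelnorm tumours, against 35.6, 24.9 and 24.5 CPM in control tumours. Its highest and its lowest library were both Zelnorm libraries, a 3.34-fold range. Oas2 had 65.9, 33.7 and 43.1 CPM in Zelnorm tumours and 49.7, 41.5 and 76.1 CPM in control tumours. Oasl2, a related gene that acts in RNA sensing in the mouse, had 68.7, 32.9 and 42.1 CPM in Zelnorm tumours and 47.9, 44.3 and 70.6 CPM in control tumours. Both peaked in the control library NC9, followed by the Zelnorm library MBZ_254, and both were lowest in the Zelnorm library MBZ_257. The log2 fold changes were −0.26 for Oas1a (SE 0.43), −0.23 for Oas2 (SE 0.30) and −0.18 for Oasl2 (SE 0.30).

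The other genes of this group were Ifit2, Isg20, Oas3, Oasl1, Rsad2 and Cmpk2, with log2 fold changes between −0.51 for Cmpk2 (SE 0.40) and 0.37 for Isg20 (SE 0.36). Isg20, an RNA exonuclease, had 12.3, 6.48 and 6.17 CPM in Zelnorm tumours and 7.06, 4.54 and 7.82 CPM in control tumours, and only the Zelnorm library MBZ_254 lay above all controls. Ifit2, which like Ifit1 binds RNA, had 42.9, 28.3 and 21.5 CPM in Zelnorm tumours and 38.2, 19.4 and 45.6 CPM in control tumours. Rsad2, or viperin, which makes a nucleotide that stalls viral polymerases, had 10.8, 10.2 and 7.54 CPM in Zelnorm tumours and 9.46, 7.52 and 12.7 CPM in control tumours. Cmpk2, its neighbour on chromosome 12, had 10.7, 4.81 and 4.11 CPM in Zelnorm tumours and 9.78, 7.26 and 11 CPM in control tumours. The groups overlapped in each of these 3 genes, and NC9 was the highest library in each. Of the 12 effectors, 9 were highest in the control library NC9 and 3 in the Zelnorm library MBZ_254.

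Among the 6 interferon-induced GTPases, which coat or disrupt viruses and the vacuoles of intracellular pathogens, 3 had a log2 value above 0 and 3 below 0. Mx1, a dynamin-like GTPase that blocks influenza virus in the mouse nucleus, had 10.7, 11.8 and 7.09 CPM in Zelnorm tumours, against 14.1, 9.85 and 13.3 CPM in control tumours. The groups overlapped, with 2 of the 3 Zelnorm libraries above the control library NC4, and the log2 fold change was −0.34 (SE 0.27). Gbp2, a guanylate-binding protein, had 50.1, 31.1 and 43.2 CPM in Zelnorm tumours and 29.8, 29.9 and 48.4 CPM in control tumours. Gbp4 had 81.6, 29.6 and 35.8 CPM in Zelnorm tumours and 52.6, 37.3 and 59.1 CPM in control tumours. For both genes the Zelnorm library MBZ_254 was the highest of the 6; for Gbp4 the other Zelnorm libraries were the lowest. The log2 fold changes were 0.20 for Gbp2 (SE 0.26) and −0.02 for Gbp4 (SE 0.38). Gbp7 had 57.4, 27.6 and 31.3 CPM in Zelnorm tumours and 38.3, 30.1 and 44.3 CPM in control tumours, with the highest and the lowest library again from Zelnorm. Gbp3, Gbp7 and Mx2, the last annotated as a polymorphic pseudogene, lay between −0.22 and 0.13.

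The membrane proteins included the most abundant transcripts of the set. Per length, in RPKM, a read density corrected for transcript length and library size, averaged over the 6 libraries, Ifitm2 reached 211, Ifitm3 196 and Bst2 68.0, against a median of 6.80 over the 39 genes and 1.19 for Oas3, the lowest. Ifitm proteins stop viruses from fusing with the cell membrane. Ifitm2 had 141, 126 and 159 CPM in Zelnorm tumours and 123, 162 and 118 CPM in control tumours, the narrowest range of the 39 genes (1.38-fold). Ifitm3 had 156, 88.1 and 125 CPM in Zelnorm tumours and 110, 172 and 146 CPM in control tumours. These genes were highest in the control library NC4, where most of the 39 genes were low, and the lowest was NC9 for Ifitm2 and MBZ_257 for Ifitm3.

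Ifitm1 was scarce, with 6.22, 1.67 and 2.74 CPM in Zelnorm tumours and 3.53, 3.89 and 3.58 CPM in control tumours. The 3 control values were close together while the Zelnorm libraries lay on both sides of them, and the SE of 0.48 was the largest of the 39 genes. Bst2, or tetherin, which holds budding virus at the cell surface, had 84.4, 54.6 and 55.2 CPM in Zelnorm tumours and 51.5, 60.1 and 62.7 CPM in control tumours. Rtp4, a receptor transporter protein, had 39, 13.9 and 17.9 CPM in Zelnorm tumours and 19.7, 17.1 and 31.1 CPM in control tumours. In both of these the Zelnorm library MBZ_254 was the highest and the other Zelnorm libraries sat inside or below the control range. Log2 fold changes in the membrane group ran between −0.22 for Ifitm3 (SE 0.25) and 0.16 for Bst2 (SE 0.20).

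The RNA sensors Ddx58 (RIG-I), Ifih1 (MDA5) and Dhx58 (LGP2) bind viral RNA in the cytoplasm. Ddx58 and Ifih1 start interferon production, and Dhx58 modulates them. All 3 had log2 values below 0, and none passed the test. Dhx58 had 17.4, 12.2 and 11.5 CPM in Zelnorm tumours, against 15.4, 17.9 and 20.9 CPM in control tumours (log2 fold change −0.40, SE 0.23). Only the Zelnorm library MBZ_254 lay inside the control range. Ddx58 had 56.3, 27.4 and 38.7 CPM in Zelnorm tumours and 42.8, 49.6 and 47.6 CPM in control tumours. Ifih1 had 34.6, 23.1 and 26.2 CPM in Zelnorm tumours and 31.1, 17.2 and 39.5 CPM in control tumours. For Ddx58 the Zelnorm libraries held both the highest and the 2 lowest values, while for Ifih1 the control libraries held both ends.

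Of the 4 transcription factors, Irf1 was the only one of the 39 genes whose groups did not overlap. Irf1 (ENSMUSG00000018899, chr11:53770014-53778374, protein-coding), a factor strongly induced by interferon gamma, had 69.5, 59.9 and 58.9 CPM in Zelnorm tumours, against 53.4, 49.5 and 51.9 CPM in control tumours. All 3 Zelnorm libraries were above all 3 controls, as were 2.52% of the tested mouse genes. The group means were 62.8 ± 5.85 CPM in Zelnorm and 51.6 ± 1.96 CPM in control tumours (SD, n = 3 each). The log2 fold change was 0.28 (SE 0.14), with an unadjusted edgeR quasi-likelihood p of 0.074 and an adjusted p of 0.9998, so the difference did not pass the test. In the opposite direction, 3% of tested genes had all Zelnorm libraries below all controls, and 0 of the 39 did.

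Irf7, which drives the later wave of type I interferon, had 64.5, 40.7 and 36.0 CPM in Zelnorm tumours and 52.4, 40.2 and 69.5 CPM in control tumours. Stat2 had 86.9, 41.8 and 52.9 CPM in Zelnorm tumours and 49.9, 59.5 and 65.0 CPM in control tumours. Unlike Irf1, both overlapped widely between groups, with 1 high Zelnorm library, MBZ_254. The log2 fold changes were −0.20 for Irf7 (SE 0.28), 0.06 for Stat2 (SE 0.27) and −0.22 for Irf9 (SE 0.33), which had 38.7, 16.7 and 31.1 CPM in Zelnorm tumours and 43.6, 24.0 and 33.7 CPM in control tumours.

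The 6 genes of the ubiquitin-like system and its regulators all had log2 values below 0, between −0.27 and −0.02, and none passed the test. Usp18, which removes Isg15 from proteins and damps the receptor, had 10.4, 8.14 and 7.54 CPM in Zelnorm tumours and 9.78, 8.94 and 12.7 CPM in control tumours. Trim30a had 61.1, 39.6 and 52.3 CPM in Zelnorm tumours and 57.7, 52.4 and 73.3 CPM in control tumours. Parp14, an ADP-ribosyltransferase and the most counted gene of this group, had 136, 73.1 and 96.8 CPM in Zelnorm tumours and 99.3, 99.9 and 117 CPM in control tumours. Their Zelnorm values spread on both sides of the lowest control for Usp18 and Trim30a and of every control for Parp14. Isg15, the ubiquitin-like protein itself, had 12.8, 14.1 and 10.97 CPM in Zelnorm tumours and 12.2, 8.43 and 18.7 CPM in control tumours.

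The remaining group held Ifi44, Ifi27l2a and Ifi35, induced genes of less settled function. Ifi44 had 40.02, 25.2 and 26.3 CPM in Zelnorm tumours, against 68.3, 16.1 and 29.8 CPM in control tumours. Both ends of its 4.25-fold range, the widest of the 39 genes, were control libraries. Ifi27l2a, the third most abundant per length at 119 RPKM, had 60.6, 26.6 and 34.5 CPM in Zelnorm tumours, against 44.3, 70.9 and 93.2 CPM in control tumours. Only the Zelnorm library MBZ_254 lay inside the control range. Its log2 fold change was −0.77 (SE 0.36), with an unadjusted edgeR quasi-likelihood p of 0.0615 and an adjusted p of 0.9998.

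**Figure D2:**
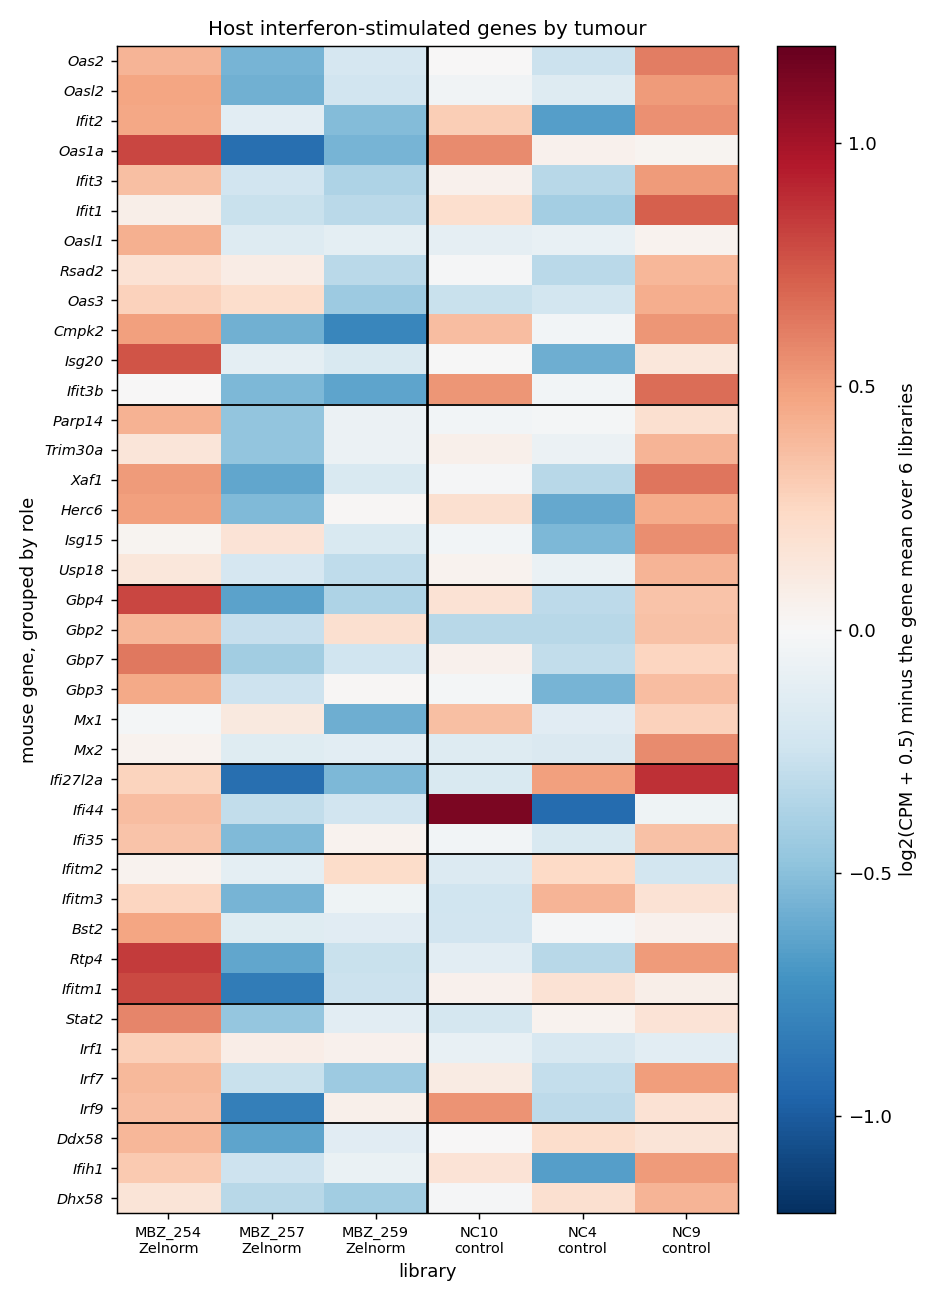
Level of each of the 39 host genes in each of the 6 libraries, as the difference of its log2(CPM + 0.5) from that gene's own 6-library average, with Zelnorm libraries left of control libraries and genes grouped by role. The Zelnorm library MBZ_254 and the control library NC9 are above the mean for most genes, and the Zelnorm libraries MBZ_257 and MBZ_259 and the control library NC4 below it for most.

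The largest pattern lay between libraries of the same group. Of the 39 genes, 19 were highest in the control library NC9 and 15 in the Zelnorm library MBZ_254, leaving 3 for NC10, 2 for NC4 and 0 for either MBZ_257 or MBZ_259. Over all tested mouse genes, 8.87% were highest in NC9, 20.8% in MBZ_254, 12.1% in NC10, 18.3% in NC4, 27% in MBZ_257 and 13% in MBZ_259. The lowest values were in MBZ_257 for 17 genes, in NC4 for 11 and in MBZ_259 for 8, where 29.4%, 19.9% and 11.9% of all tested genes were lowest. Few were lowest elsewhere: 0 in MBZ_254, 2 in NC10 and 1 in NC9, against 20.4%, 9.06% and 9.41% of all tested genes. The summed level of the 39 genes was 1750, 1031 and 1228 CPM in Zelnorm tumours and 1363, 1296 and 1643 CPM in control tumours. The Zelnorm sums thus lay on both sides of the 3 control sums.

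Within the Zelnorm group, MBZ_254 exceeded MBZ_257 in 37 of 39 genes, with a median log2 ratio of 0.68, where all tested mouse genes had a median of 0.09. It exceeded MBZ_259 in 38 of 39 genes, with a median log2 ratio of 0.57. Within the control group, NC9 exceeded NC4 in 34 of 39 genes, with a median log2 ratio of 0.65 (0.00 over all tested genes). The high libraries of the 2 groups were alike in overall level: MBZ_254 exceeded NC9 in 19 of 39 genes, with a median log2 ratio of −0.01. Single genes differed between them in both directions: Ifit1 and Ifit3b were lower in MBZ_254 than in NC9 (log2 ratios of −0.64 and −0.67), and Oas1a and Ifitm1 were higher (0.76 and 0.72). These descriptions compare single libraries and carry no test.

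Set against the controls one at a time, MBZ_254 was above all 3 controls in 15 of 39 genes and below all 3 in 0, where 25.8% and 26.8% of tested genes were. MBZ_257 was above all 3 in 1 and below all 3 in 21, against 32.2% and 35.4% of tested genes. MBZ_259 was above all 3 in 1 and below all 3 in 17, against 24.5% and 22.6%. The Zelnorm group therefore held 1 library at or above the control levels and 2 mostly at or below them.

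Library by library, other host cell markers gave the following levels beside this pattern. Summed macrophage markers were 3712, 3983 and 3959 CPM in Zelnorm tumours and 3712, 3372 and 2796 CPM in control tumours, lowest in NC9. Of the 6 macrophage markers, 2 had Zelnorm values above every control, as did 2.52% of all tested mouse genes. EdgeR called 0 of the 6. Summed natural killer cell markers were 4.45, 3.33 and 3.43 CPM in Zelnorm tumours and 5.13, 3.76 and 11.6 CPM in control tumours, highest in NC9. Endothelial markers summed to 892, 511 and 728 CPM in Zelnorm tumours and 656, 971 and 689 CPM in control tumours. The markers listed for plasmacytoid dendritic cells were Siglech, Ccr9 and Cox6a2. They summed to 1.78, 2.59 and 28.6 CPM in Zelnorm tumours and 1.6, 9.46 and 11.6 CPM in control tumours. Their sum was highest in MBZ_259, where the skeletal muscle markers were also highest, at 3865 CPM. The control libraries NC4 and NC9 came next in both sums, with 1533 and 1069 CPM of skeletal muscle markers. Whether the sum of these 3 genes follows dendritic cells or muscle was not tested. Adipocyte markers summed to 70.3, 41.3 and 14.1 CPM in Zelnorm tumours and 111, 340 and 213 CPM in control tumours. All 4 adipocyte genes had Zelnorm values below every control, as did 3% of all tested mouse genes, with a median log2 fold change of −2.28. All 4 had an unadjusted edgeR p under 0.05, as did 1.75% of all tested mouse genes. These 4 genes mark 1 cell type, and edgeR called 0 of them (smallest adjusted p 0.9998). The part of these cells in the levels of the 39 genes was not tested.

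**Figure D3:**
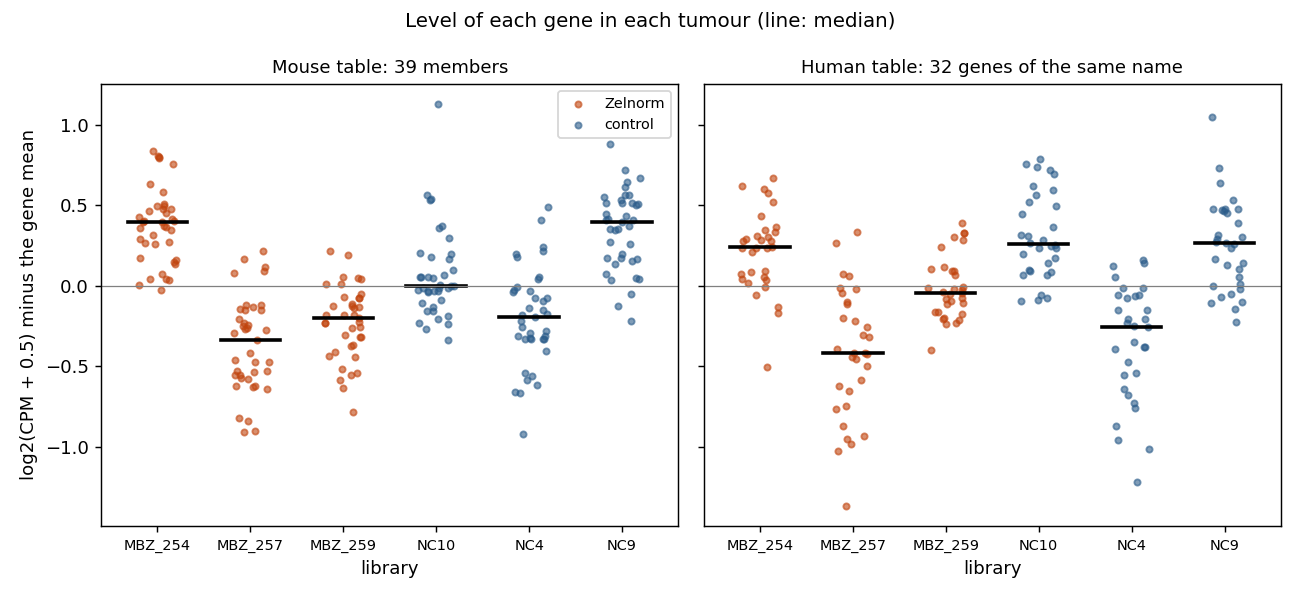
Per-library summary of the 39 host genes and of the human genes of the same name: the median log2 deviation from each gene's 6-library mean, with Zelnorm libraries left of control libraries. The host medians are 0.39, −0.34 and −0.20 in Zelnorm and 0.00, −0.20 and 0.40 in control tumours, and the human medians 0.24, −0.42 and −0.04 against 0.26, −0.25 and 0.27.

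The tumour cells' own genes of the same name were tested in the human table of the same 6 libraries. Of the 32 human genes tested, 5 had a log2 value above 0 and 27 below 0, where 50.9% of the 18820 tested human genes were below 0. Their median log2 fold change was −0.17. The edgeR test called 0 of 32 and 0% of all human genes. At an unadjusted p under 0.05 it counted 1 of 32, against 1.31% of tested genes, while DESeq2 and limma-voom called 0 of 32 (0.00603% and 0% of all human genes tested). That gene was IRF1, with 28.1, 35.2 and 30.2 CPM of the human library in Zelnorm tumours, against 26.0, 25.04 and 23.7 CPM in control tumours. Its groups did not overlap, as in the mouse table, and its log2 fold change was 0.32 (SE 0.13), with an unadjusted edgeR quasi-likelihood p of 0.0331 and an adjusted p of 0.9999. Among tested human genes, 2.52% had all Zelnorm libraries above all controls and 2.31% had all below, which none of the 32 did.

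The human genes also differed between libraries of one group. They were highest in the control library NC10 for 12 of 32, in the Zelnorm library MBZ_254 for 9 and in the control library NC9 for 6, with 2 each for MBZ_257 and MBZ_259 and 1 for NC4. Over all tested human genes, 13.7% were highest in NC10, 16.5% in MBZ_254, 13.3% in NC9, 17.5% in MBZ_257, 14.2% in MBZ_259 and 24.7% in NC4. The lowest library was MBZ_257 for 16 of 32 and NC4 for 10, against 17.7% and 24.5% of all tested human genes. The summed human level was 1356, 924 and 1060 CPM in Zelnorm tumours and 1354, 992 and 1270 CPM in control tumours. MBZ_257 and NC4 were thus the libraries most often lowest in both species. The library NC10 was high in human and near the middle in mouse. As an example, human IFIT1 had 40.3, 20.3 and 28.2 CPM in Zelnorm tumours and 53.7, 16.0 and 49.4 CPM in control tumours, with NC10 the highest.

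Whether treatment went with a different change in host and tumour was tested directly, with a species by treatment term on 11112 same-name gene pairs. It was called for 0 of 32 pairs and for 0% of all pairs by edgeR, and 0 of 32 had an unadjusted p under 0.05, against 1.6% of all pairs. The difference of the log2 fold changes, mouse minus human, ran between −0.35 for Irf7 (SE 0.22) and 0.51 for Rsad2 (SE 0.68). For IRF7 the human levels were 42.7, 22.5 and 31.1 CPM in Zelnorm tumours and 31.1, 25.6 and 28.6 CPM in control tumours. The SEs of these differences ran between 0.18 and 0.68, so differences of that size could not be resolved with 3 libraries a group.

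**Figure D4:**
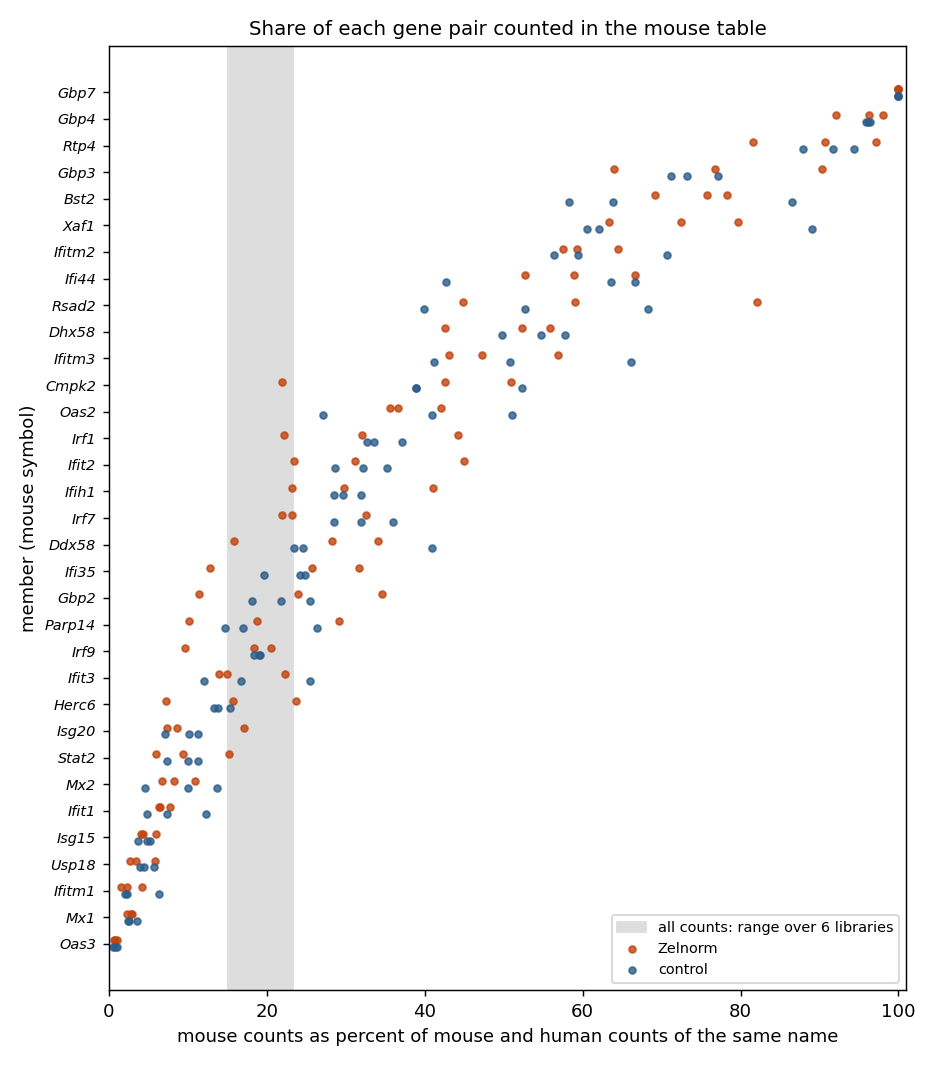
Share of the counts of each same-name pair that fell in the mouse table, per library, for the 33 pairs, with the range of the mouse share of all counts (15.1% to 23.4%) shown for comparison. The pooled shares range between 0.825% for Oas3 and 100% for Gbp7.

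The mouse share of the counts of a same-name pair differed widely. Pairs were matched by name alone, so a pair need not be the same gene in both species. Over all libraries the mouse share of a pair was 0.825% for Oas3 at the low end, 29.6% at the median, and 96.4% for Gbp4 and 100% for Gbp7 at the high end. Human GBP7 had 0 counts in every library. The library-wide mouse share was 15.1% to 23.4%, and 19 of 33 pairs lay above this range, 4 within it and 10 below. In 11 pairs the mouse gene held over 50% of the counts: among them Rtp4 at 92.5%, Gbp3 at 76.3%, Bst2 at 71.1% and Ifitm2 at 61.4%. Isg15, Mx1, Oas3, Ifitm1 and Usp18 had under 5%.

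How reads were divided between species was looked at in genes of the human epithelial cells, which the host also carries. Their mouse share was 0.0216% for Epcam and 0.14% for Cdh1, which mark epithelium, but 1.2% for Krt18 and 9.7% for Krt8, with 9.05% to 10.2% for Krt8 in single libraries. Whether the keratin counts in mouse are human reads or come from host cells was not tested. These epithelial shares overlap with those of the 5 host genes with under 5%. The Krt8 share also reaches those of Ifit1, Mx2 and Stat2, whose pooled mouse shares were 6.996%, 8.56% and 9.97%. How far the mouse counts of all these host genes come from human reads was not tested. Without the 5 genes under 5%, 10 of the other 34 had a log2 value above 0 and the median stayed at −0.16. Ifit1, Mx2 and Stat2 were kept in that check.

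Interferon transcripts of the host were hardly detected. Of 21 mouse interferon genes, 20 had 0 counts in all 6 libraries, which allows a level of up to 0.327 to 0.517 CPM depending on depth, for counting error only. Ifng, singled out after its values were seen, had 7 counts, 6 in the Zelnorm library MBZ_254 and 1 in the control library NC9. These libraries are those in which the 39 genes were highest, but so few reads give no level. In the human table IFNE, an epithelial interferon, had 2.68, 3.34 and 3.29 CPM in Zelnorm tumours and 2.58, 2.05 and 3.01 CPM in control tumours, with overlapping groups. Human IFNA1 had 0.122, 0.896 and 0.554 CPM in Zelnorm tumours and 0.569, 0.348 and 0.703 CPM in control tumours, and human IFNA13 had 0.325, 0.278 and 0.36 CPM in Zelnorm tumours and 0.152, 0.464 and 0.452 CPM in control tumours. Groups overlapped in both, and the counts of these closely similar genes are not whole, so their division is uncertain. Human IFNB1 had 3 counts in all, and IFNG had 0.

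Of 26 genes of interferon receptors and signalling, 25 were tested in mouse. A log2 value above 0 was seen in 12 and one below 0 in 13. EdgeR, DESeq2 and limma-voom each called 0, and edgeR counted 0 at an unadjusted p under 0.05. Ifnar1, a chain of the type I interferon receptor, had 117, 90.5 and 92.1 CPM in Zelnorm tumours and 106, 104 and 91.5 CPM in control tumours (log2 fold change −0.0089, SE 0.16). Its highest and its lowest library were both Zelnorm libraries, MBZ_254 and MBZ_257. Jak1 had 250, 196 and 215 CPM in Zelnorm tumours and 251, 272 and 233 CPM in control tumours (log2 fold change −0.19, SE 0.17). The kinase genes Ikbke and Tbk1, which act below the RNA sensors, had log2 fold changes of 0.37 (SE 0.22) and 0.20 (SE 0.15). Ikbke had 24.0, 17.0 and 15.2 CPM in Zelnorm tumours and 15.1, 13.1 and 15.3 CPM in control tumours, and the groups overlapped. Tbk1 had 48.4, 42.4 and 42.3 CPM in Zelnorm tumours and 41.0, 34.3 and 40.5 CPM in control tumours, without overlap. Tyk2 also did not overlap between groups, at 40.02, 41.1 and 39.4 CPM in Zelnorm and 37.4, 38.1 and 37.2 CPM in control tumours. It was named after its values were seen. These were 2 of the 25 tested genes with all Zelnorm libraries above all controls, where 2.52% of all tested mouse genes were.

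A wider list of 55 other interferon-induced mouse genes gave 53 that were tested. Of these, 21 had a log2 value above 0 and 32 below 0, with a median of −0.04, and 0 passed the adjusted threshold with edgeR, DESeq2 or limma-voom, or an unadjusted p under 0.05 with edgeR. They were highest most often in MBZ_254 (29 of 53) and NC9 (12 of 53), where 20.8% and 8.87% of all tested mouse genes were highest. Lowest values were in MBZ_257 for 27 of 53, NC4 for 12 and MBZ_259 for 10. Of all tested mouse genes, 29.4%, 19.9% and 11.9% were lowest in these libraries. For NC4 the count lay near that share. B2m, the light chain of class I antigen-presenting molecules, had 831, 474 and 631 CPM in Zelnorm tumours and 626, 631 and 688 CPM in control tumours. Its Zelnorm libraries held both the highest and the lowest value. Ly6e, which restricts virus entry, had 468, 193 and 290 CPM in Zelnorm tumours and 316, 531 and 357 CPM in control tumours. Ifi203, a nuclear DNA-binding protein, had 48.0, 47.4 and 41.8 CPM in Zelnorm tumours and 66.5, 41.6 and 63.4 CPM in control tumours. Parp12 had 45.2, 33.1 and 31.9 CPM in Zelnorm tumours and 44.6, 44.7 and 44.6 CPM in control tumours, where the 3 controls were nearly equal and MBZ_254 lay just above them. Cxcl9, a chemokine induced by interferon gamma and named after its values were seen, had 83.6, 20.7 and 46.7 CPM in Zelnorm tumours, against 17.0, 11.4 and 51.5 CPM in control tumours (log2 fold change 0.91, SE 0.63). The control library NC9 exceeded all Zelnorm libraries except MBZ_254.

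Which library was left out decided the sign of the group's median. Without the Zelnorm library MBZ_254, 3 of 39 genes had a log2 value above 0 and the median was −0.43, while without the control library NC9 it was 24 of 39 with a median of 0.08. Leaving out the Zelnorm library MBZ_257 gave 21 of 39 above 0 and a median of 0.04. None of the 39 genes passed the adjusted threshold in any of these 3 comparisons. At an unadjusted edgeR p under 0.05 there were 7 of 39 without MBZ_254, against 866 of 14784 tested mouse genes. Without NC9 there were 0 of 39, against 221 of 14741, and without MBZ_257 0 of 39, against 331 of 14859.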

How the data were processed

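RNA from whole tumours was sequenced in 6 libraries, 3 per group. The authors deposited 1 table of estimated counts per species, made with HISAT2 and StringTie on GRCh38 and GRCm38, per the submitters' processing notes. The sources used here do not say how reads were divided between species. Column names show the group of a library but not its replicate number, and 0 value columns were left unused. Rows without a gene name (0.317% to 0.468% of mouse counts per library) were left out. Estimated counts were rounded to whole numbers, which edgeR needs; 16 of the 39 genes had values that were not whole.

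Each table was filtered with filterByExpr, scaled by TMM and tested with edgeR 4.0.16 (quasi-likelihood, R 4.3.3) with Benjamini-Hochberg adjustment and a threshold of 0.05. The species by treatment term was fitted on same-name pairs with library as a block. The scripts were tested on simulated data. DESeq2 1.42.0, limma-voom 3.58.1, DESeq2 size factors, no filter, and leaving out each library were the alternatives. RPKM used union exon lengths of GENCODE vM21. Floors and intervals cover counting error only: 3 counts were the floor, 0.327 to 0.517 CPM in the mouse table.

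The members and lists were chosen with earlier results of these data known. Named genes were, in each role group, the 2 with the smallest p and the 2 with the highest mean CPM, and the 5 with the widest range between libraries. Others named are summaries of a group or were chosen after their values were seen. One gene of the receptor and signalling list is not reported here.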

Additional observations from a re-analysis of the deposited data

How the results depend on the processing

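With 10 alternatives to the main settings, 0 of the 39 host genes and 0 of the 32 human genes were called in each, and the adjusted p of the 32 named mouse genes stayed between 0.75 and 1.00. Over all mouse genes, 2 were called with no filter and 6 with DESeq2; over all human genes, 61 with no filter and 2 with DESeq2; of the species by treatment pairs, 1 with no filter and 0 to 2 over the leave-one-out fits (2 without MBZ_259). Leaving out 1 library at a time, 3 (without MBZ_254) to 24 (without NC9) of the 39 genes were above 0, with a median of −0.43 to 0.08; of the human genes 3 to 13 were above 0, with a median of −0.29 to −0.02. Host counts above 0 were also 21 without MBZ_257, and human counts 13 without NC10, 9 without NC9 and 13 without MBZ_257. Signs turned when a library was left out in 16 of 32 named genes, with ranges of −0.98 to 0.055 for Oas1a, −0.54 to 0.059 for Oas2, −0.54 to 0.052 for Oasl2, −0.68 to 0.40 for Ifi44, −0.71 to 0.30 for Ifitm1, −0.012 to 0.24 for Ifitm2, −0.51 to 0.022 for Irf7, −0.30 to 0.28 for Stat2, −0.50 to 0.039 for Ddx58, −0.34 to 0.21 for Ifih1, −0.093 to 0.28 for Bst2, −0.51 to 0.36 for Rtp4, −0.61 to 0.26 for Gbp4, −0.32 to 0.16 for Parp14, −0.15 to 0.072 for Ifnar1 and −0.24 to 0.19 for B2m (log2). Rtp4 was also −0.022 with limma-voom. The cause was not tested. Leaving out the 5 genes with under 5% of their pair's counts in mouse, chosen after seeing the data, left 10 of 34 above 0. No paired analysis was possible because the column names carry no replicate number. With 3 libraries a group, SEs of 0.14 to 0.48 limit what could be seen.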
